A study of Mus musculus with 11 samples.

Results

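The kinesins and centromere proteins of the mouse gingival epithelium were taken from the table of normalized counts as the genes whose name starts with Kif and a digit or with Cenp and a letter. Of 63 genes so named, 57 had values, 36 of 42 Kif genes and 21 of 21 Cenp genes, among 19170 genes with values of 55414 listed. The genes listed without values were Kif12, Kif2b, Kif19b, Kif28 and the pseudogenes Kif22-ps and Kif4-ps. The rule uses names and no measured level, but was set with earlier results of these data known. A gene also needed values, and the smallest sum of reads over the mice among genes with values was 10. The kinesins were split by their known function into 11 mitotic kinesins, 15 transport kinesins and 10 other genes.

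The epithelium came from 11 male langerin-DTR mice. These mice express the diphtheria toxin receptor under the control of langerin, so that diphtheria toxin (DT) kills langerin+ cells, in this tissue the Langerhans cells, which are the antigen-presenting cells of stratified epithelia. The injections were made at ages of 17, 24 and 31 days, with PBS in 5 mice and with DT in 6 mice. The tissue was collected at 8 weeks of age, so the groups share genotype, age and injection days and differ in the agent. In the paper's flow cytometry, Langerhans cells were missing during the weeks of injection and were back at normal frequencies by 8 weeks. The groups therefore compare an earlier, passing depletion with none. The receptor is driven by langerin and marks every langerin+ cell, and the epithelium was sequenced in bulk, so that fewer cells of a type and less RNA per cell cannot be told apart.

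Kinesins are motors that walk along microtubules with energy from ATP. Transport kinesins carry vesicles, organelles and RNA in resting cells, while mitotic kinesins are made as a cell enters division, build the spindle, move the chromosomes and complete the separation of the daughter cells. Centromere proteins mark the place on each chromosome where the kinetochore forms, the structure that holds the spindle microtubules. In a stratified epithelium such as the gingiva, division takes place in the basal layers, and the cells above them differentiate and no longer divide.

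The sequencing depth was between 17667561 and 22180193 reads in the PBS mice and between 17509330 and 24325520 reads in the DT mice, as recovered from the value that a single read takes in each library. Keratins of the basal layer (Krt5, Krt14) and of the suprabasal layers (Krt4, Krt13, Krt76) were abundant in every library, and the summed basal markers lay between 296345 and 380798 normalized counts in PBS and between 318969 and 363852 in DT. Of 5 neuronal markers, Nefl and Rbfox3 had no values, Snap25 was at most 4.20 normalized counts, Stmn2 lay between 8.83 and 32.5 and Tubb3 between 697 and 1042, and their sum was between 733 and 938 in PBS and between 822 and 1053 in DT. Cd207, which encodes langerin, lay between 10.0 and 43.0 normalized counts in PBS and between 15.8 and 21.6 in DT. The groups thus overlapped in Cd207, at an age when the paper found the cells that DT targets regained. The sum of the 5 Langerhans cell markers lay between 2291 and 4850 in PBS and between 1757 and 3051 in DT. All 5 had a log2 difference below 0, with Cd207 at -0.19, Epcam at -0.11, Cd74 at -0.50, H2-Ab1 at -0.53 and Mfge8 at -0.35. Of these, 0 passed an adjusted p of 0.1 in limma. The part of these markers in the results was not tested. PBS 3 and PBS 5 held the highest Cd207 values, 32.2 and 43.0, and stood apart from the other PBS mice in several genes described here. The library name in the title of PBS 5 carries another number than its column of the table, and the mouse was tied to that column by its description.

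With all mice, 107 of 19170 genes passed an adjusted p of 0.1 in limma (0.558%), and 0 of the 57 kinesins and centromere proteins did. At an unadjusted p under 0.05, 3 members were lower after DT (5.26%) against 6.19% of all genes, and 1 was higher (1.75%) against 5.31% of all genes. The groups did not overlap in 0 members, against 1.65% of all genes. Over the 57 members together, these shares are at or below those of all genes. By class, 2 of 11 mitotic kinesins were lower (18.2%) and 1 of 11 was higher (9.09%), above the shares of all genes. Of the 21 centromere proteins 1 was lower (4.76%) and 0 were higher, and the transport and other kinesins had 0 either way. A value that misses the threshold does not show that the groups were alike, and the 95% intervals give the room that was left. Of the 51 members whose mean over all mice reached 10 normalized counts, 47 had an interval of the difference that lay inside a 1.5-fold change either way. The exceptions were Kif17, Kif5a, Kif24 and Cenpm. The 6 members under that mean, Kif1a, Kif5c, Kif6, Kif19a, Kif27 and Kif16bos, are too low for a difference to be read.

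**Figure D1:**
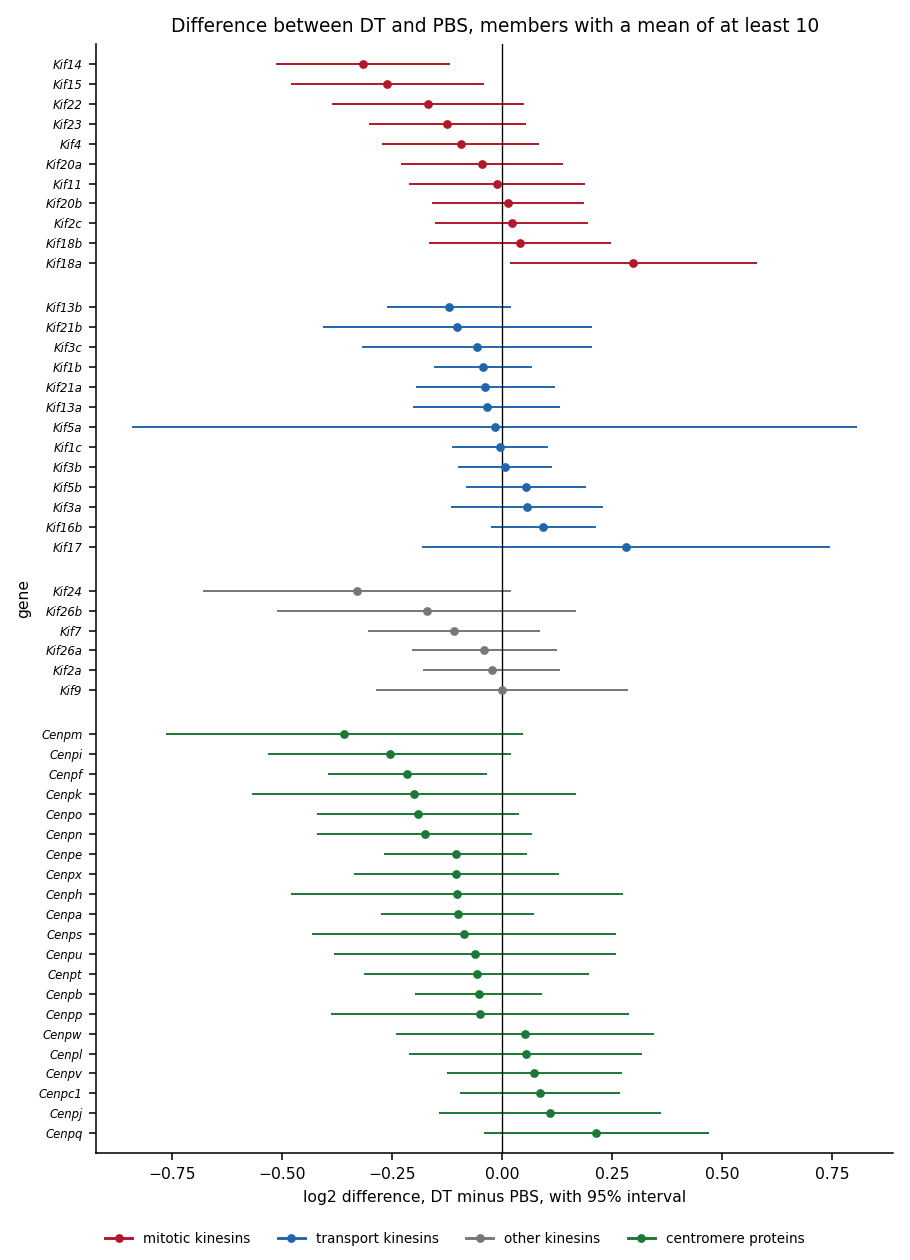
Log2 difference between DT and PBS (horizontal axis, points) with its 95% interval (bars) for the 51 members whose mean reached 10 normalized counts, ordered within mitotic, transport and other kinesins and centromere proteins. Intervals exclude 0 in Kif14, Kif15, Cenpf and Kif18a, and 0 members passed the adjusted threshold of 0.1.

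The promoters of the mitotic kinesins held a shared feature that the choice of genes did not use. Some are shown here because the motifs they hold differ between the mitotic and the transport kinesins. In cells that divide, genes of the late cell cycle carry the cell cycle genes homology region (CHR), often with a CCAAT box, and genes of DNA replication carry E2F sites. RefSeq windows on GRCm38.p6 reaching from 250 bases before to 50 bases after the transcription start were found for 51 of the 57 members. Kif13b, Kif19a, Kif20a, Kif21b, Kif5a and Kif5b had no window. A gene with several annotated starts has a window for each, so shares are of windows and not of genes. The letters searched on both strands were TTTGAA for CHR, CCAAT for the CCAAT box and TTCCCGC for the E2F site, and no search motif overlaps another. Each line below runs 5′ to 3′ from 120 bases before to 30 bases after the start, with the matches in capitals, where TTCAAA and ATTGG are the reverse strand of CHR and of the CCAAT box.
Kif11 promoter (chr19:37376262-37376411, plus strand): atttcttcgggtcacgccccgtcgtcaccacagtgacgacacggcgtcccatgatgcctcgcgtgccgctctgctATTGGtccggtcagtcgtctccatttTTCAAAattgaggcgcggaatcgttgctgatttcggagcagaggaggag
Kif23 promoter (chr9:61946770-61946919, minus strand): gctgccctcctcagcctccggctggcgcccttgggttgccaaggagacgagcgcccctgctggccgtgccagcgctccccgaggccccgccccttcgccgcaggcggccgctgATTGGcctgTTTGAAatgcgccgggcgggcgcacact
Kif4 promoter (chrX:100625945-100626094, plus strand): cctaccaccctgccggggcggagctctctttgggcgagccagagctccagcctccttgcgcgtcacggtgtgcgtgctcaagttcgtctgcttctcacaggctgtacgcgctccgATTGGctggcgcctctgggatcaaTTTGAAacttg
Kif15 promoter (chr9:122950961-122951110, plus strand): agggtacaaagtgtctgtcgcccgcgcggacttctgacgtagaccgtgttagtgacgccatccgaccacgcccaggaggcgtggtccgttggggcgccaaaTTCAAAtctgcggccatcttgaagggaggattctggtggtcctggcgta
Cenpf promoter (chr1:189688057-189688206, minus strand): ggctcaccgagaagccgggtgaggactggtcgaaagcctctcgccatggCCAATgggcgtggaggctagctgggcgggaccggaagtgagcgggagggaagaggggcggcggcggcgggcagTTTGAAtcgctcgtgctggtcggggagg
Kif18a promoter (chr2:109280618-109280767, plus strand): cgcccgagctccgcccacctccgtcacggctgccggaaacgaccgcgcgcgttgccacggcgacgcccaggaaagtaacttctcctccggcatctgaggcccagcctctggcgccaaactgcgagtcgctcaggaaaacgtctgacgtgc
Kif1c promoter (chr11:70700428-70700577, plus strand): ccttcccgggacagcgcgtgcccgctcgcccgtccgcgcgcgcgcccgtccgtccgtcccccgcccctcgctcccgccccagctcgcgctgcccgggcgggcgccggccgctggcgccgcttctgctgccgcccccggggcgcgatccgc

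Kif11, Kif23, Kif4 and Cenpf hold both a CHR and a CCAAT box in this stretch, and Kif15 holds a CHR alone. Kif18a and Kif1c, the latter a transport kinesin, hold neither. Over the whole windows, CHR was found in 9 of 10 windows of mitotic kinesins (90%), the exception being Kif18a, and in 1 of 13 windows of transport kinesins (7.69%), against 17.9% of all 32851 windows. CHR with a CCAAT box was found in 6 of 10 windows of mitotic kinesins (60%) and in 0 of 13 of transport kinesins, against 6.95% of all windows. In the windows of the centromere proteins, CHR was found in 5 of 24 (20.8%). A CCAAT box was in 17 of their 24 windows (70.8%) against 37.4% of all windows, and an E2F site in 9 of 24 (37.5%) against 4.60%. The E2F site was in 0 of 10 windows of mitotic kinesins. A match is a description of letters and not a site in use, and a missing match says only that these letters are not in this window.

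The mitotic kinesins were all expressed, with mean levels between 13.7 normalized counts per kb of exon for Kif18a and 131 for Kif20a, the motor that carries the chromosomal passenger complex to the spindle midzone. Kif11, the motor that pushes the spindle poles apart, followed at 114 per kb, and Kif23, a subunit of centralspindlin, at 86.9 per kb. By normalized count Kif11 (mean 847) and Kif23 (687) stood above Kif20a (567), and the order per kb assumes reads from whole transcripts. Together the 11 mitotic kinesins made up between 10.3% and 14.2% (median 11.4%) of the summed level per kb of the Kif genes in a mouse. After DT, 7 of the 11 had a difference below 0, with a median of -0.05 on the log2 scale. Of all genes whose mean reached 10, 49.3% had a difference below 0 and the median was 0.00219.

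Kif14, a motor that works with citron kinase in the last step of cell division, had the smallest p of all members. In the PBS mice its values were 313, 311, 305, 278 and 333 normalized counts, and in the DT mice they ran from 201 in DT 2 over a median of 246 to 309.8 in DT 6. All DT mice except DT 6 lay below the lowest PBS mouse, so the groups overlapped through DT 6. The means were 308 ± 19.8 (SD, n = 5) in PBS and 249 ± 35.6 (SD, n = 6) in DT. The log2 difference was -0.32 with a standard error of 0.0936 and a 95% interval from -0.51 to -0.12, and the limma p of 0.00391 became 0.215 after Benjamini-Hochberg adjustment. Leaving out any of the 11 mice in turn kept the difference between -0.38 and -0.26, with 0 of 11 adjusted p-values past the threshold.

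Kif15, which keeps the spindle bipolar beside Kif11, had 342, 292, 276, 277 and 339 normalized counts in the PBS mice. In the DT mice it ran from 213 in DT 3 over a median of 243 to 314 in DT 1. The ranges overlapped, with DT 1 and DT 6 among the PBS values and the other DT mice below them. The log2 difference was -0.26 (SE 0.104, 95% interval -0.48 to -0.04), with an adjusted limma p of 0.342.

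Kif18a was the member whose difference pointed the other way among those with an unadjusted p under 0.05. This motor sits at the plus ends of the microtubules and damps the swings of the chromosomes before they part. In the PBS mice its values were 119.9, 126, 99.6, 107 and 143 normalized counts, and in the DT mice they ran from 121 in DT 3 over a median of 141 to 205 in DT 6. The highest DT mouse lay well above all others, and the remaining DT mice overlapped with PBS. The log2 difference was 0.30 (SE 0.132, 95% interval 0.02 to 0.58), with an adjusted limma p of 0.398, and it was 0.20 without DT 6. The promoter window of Kif18a, printed above, held none of the motifs. The other mitotic kinesins with a window all held a CHR and had differences on both sides of 0. A link between the motifs and the differences was not tested.

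Among the motors that act on the chromosome arms and the midzone, Kif22 had means of 347 ± 48.8 (SD, n = 5) in PBS and 308 ± 39.7 (SD, n = 6) in DT, a log2 difference of -0.17 (95% interval -0.39 to 0.05). Kif4, the chromokinesin that sets the length of the midzone, had a log2 difference of -0.09 (95% interval -0.27 to 0.08). Reads shared with the pseudogenes Kif22-ps and Kif4-ps cannot be assigned from these values, so that the levels of both genes are uncertain to that extent. Kif23 had 764, 732, 661, 706 and 721 normalized counts in the PBS mice and in the DT mice ran from 573 in DT 2 over a median of 640.4 to 824 in DT 6, a log2 difference of -0.12 (95% interval -0.30 to 0.05). Its spread was wider in DT, where the lowest and the highest of all 11 mice were found.

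The group means differed little in Kif11 and Kif20a, the highest mitotic kinesins per kb, while Kif23, the next per kb, had the log2 difference of -0.12 given above. Kif11 had 850.5 ± 105 (SD, n = 5) normalized counts in PBS and 845 ± 118 (SD, n = 6) in DT, a log2 difference of -0.01 (95% interval -0.21 to 0.19). Kif20a had 576 ± 56.6 (SD, n = 5) and 559 ± 73.7 (SD, n = 6), a log2 difference of -0.05 (95% interval -0.23 to 0.14). The microtubule depolymerase Kif2c, its partner Kif18b, and Kif20b, which acts in cytokinesis, had log2 differences of 0.02, 0.04 and 0.01.

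A single mouse stood high in most genes of this class. DT 6 had the highest value of the 6 DT mice in 10 of 11 mitotic kinesins and of all 11 mice in 7 of 11. Its mean deviation from the mean of all mice over the class was 0.28 on the log2 scale, whereas the other DT mice lay between -0.17 in DT 2 and 0.01 in DT 1. The PBS mice ranged from -0.08 in PBS 4 to 0.13 in PBS 5, so the class level of the PBS mice lay within the range of the DT mice. DT 6 was also the highest DT mouse in 11 of 21 centromere proteins, in 23 of 36 kinetochore partners and in 8 of 8 cell cycle markers, and in 2 of 13 transport kinesins. The share of all genes in which DT 6 was the highest was not computed. These counts therefore cannot be read as a trait of a class. Without DT 6 the median difference of the mitotic kinesins was -0.11, and 8 of 57 members had an unadjusted p under 0.05 (14%) against 10.2% of all genes, in place of 4 of 57 (7.02%) against 11.5% with all mice. Without PBS 1 it was 1 of 57 (1.75%) against 9.82%. Among all mice, however, DT 6 was the highest in 1 of 8 cell cycle markers. Its mean deviation over these markers was 0.15, below PBS 3 (0.21) and PBS 5 (0.19). PBS 3 stood at 0.02 in the mitotic kinesins, so the lists did not move together in every mouse. The part of the cell cycle markers in the result was not tested.

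**Figure D2:**
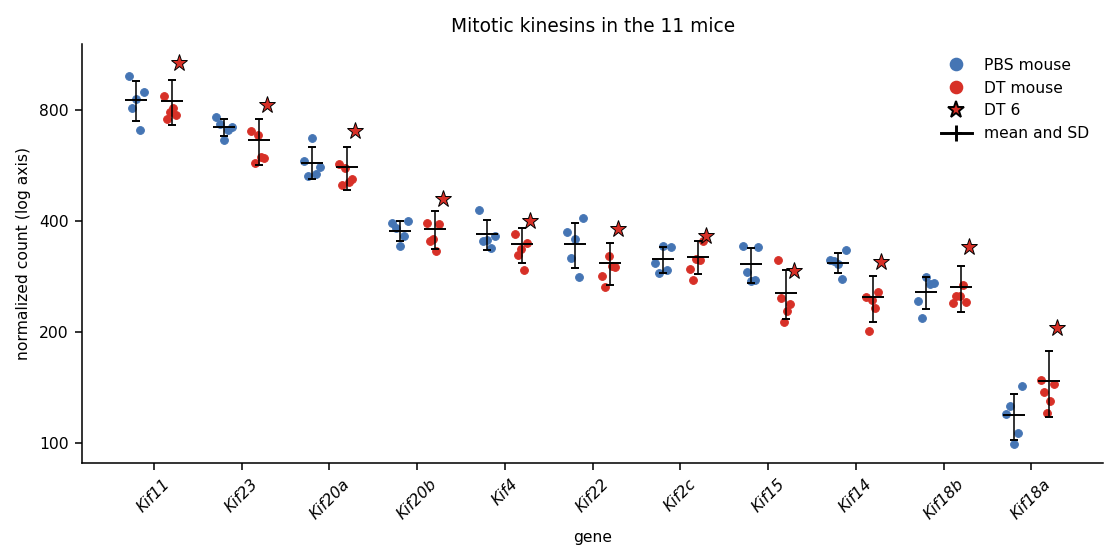
Normalized counts (vertical axis, log scale) of the 11 mitotic kinesins in each PBS mouse (blue points) and DT mouse (red points, DT 6 as a star), with the mean and SD of each group in black. DT 6 is the highest DT mouse in 10 of 11 genes, and the groups overlap in every gene.

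**Figure D3:**
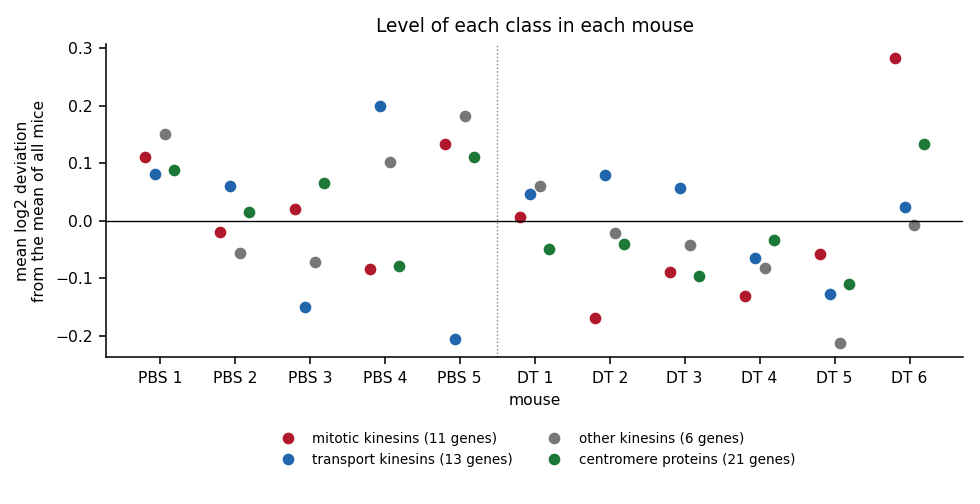
Mean log2 deviation from the mean of all mice (vertical axis) over the genes of each class whose mean reached 10 normalized counts, in each of the 11 mice. Mitotic kinesins stand at 0.28 in DT 6 and at -0.17 in DT 2, and transport kinesins are lowest in PBS 5 (-0.21) and PBS 3 (-0.15).

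The transport kinesins dominated the class in level. Kif1c, a motor of the kinesin-3 family that carries vesicles and RNA to the cell periphery, stood at 2687 normalized counts per kb and made up between 41.1% and 46.2% (median 43.5%) of the summed level per kb of the Kif genes in a mouse. Kif5b, the heavy chain of conventional kinesin in most cell types, followed at 842 per kb (median 13.8%), and Kif1b and Kif21a at 294 and 285 per kb. The 15 transport kinesins together made up between 77.0% and 79.8% (median 78.5%). These shares assume reads from whole transcripts, which the descriptions of the libraries leave unsettled. By normalized count Kif1c, Kif5b and Kif1b kept this order, at means of 19549, 6717 and 5169. Per kb, the ranges of Kif1b and Kif21a over the mice overlapped, while by normalized count Kif1b stood above Kif21a in each mouse. On both scales Kif1c stood above Kif5b in each mouse.

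In Kif1c the PBS mice had 18669, 19340.3, 18648, 19978 and 21338 normalized counts, and the DT mice ran from 18987 in DT 1 over a median of 19507 to 20045 in DT 3. The DT values all lay inside the PBS range. The log2 difference rounded to 0 at 2 decimals, with a 95% interval from -0.11 to 0.11. In Kif5b the PBS mice had 7299, 7141, 5596, 6807 and 6131, with PBS 3 and PBS 5 the lowest of all 11 mice, and the DT mice lay between 6520.4 and 7129. Its log2 difference was 0.05 (95% interval -0.08 to 0.19).

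The transport kinesins with the smallest p differed in direction, and neither passed. Kif13b, a kinesin-3 motor that binds Dlg scaffold proteins, had 1942 ± 164 (SD, n = 5) normalized counts in PBS and 1786 ± 143 (SD, n = 6) in DT, a log2 difference of -0.12 (95% interval -0.26 to 0.02, adjusted limma p of 0.504). Kif16b, which positions early endosomes, had 1191 ± 98.3 (SD, n = 5) and 1267 ± 41.2 (SD, n = 6), a log2 difference of 0.09 (95% interval -0.03 to 0.21, adjusted limma p of 0.552). The antisense RNA Kif16bos meets the name rule but is no kinesin, and it was at 0 in 6 of 11 mice and at most at 2.54 normalized counts.

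The kinesin-2 motors, which work in cilia and carry vesicles as a trimer with Kifap3, gave tight values in Kif3b, with 648 ± 32.4 (SD, n = 5) in PBS and 650.3 ± 15.2 (SD, n = 6) in DT. Its log2 difference was 0.01 (95% interval -0.10 to 0.11). The log2 difference of Kif3a was 0.06 and that of Kif3c was -0.06. Kif17, a motor of cilia and dendrites and the transport kinesin with the lowest level per kb among those with a mean of at least 10, had 22.6, 15.5, 17.1, 25.5 and 11.5 normalized counts in the PBS mice and between 17.7 and 25.2 in the DT mice. Its log2 difference was 0.28 with an interval from -0.18 to 0.75, and counting error alone is 22.0% of such a level. Kif21b, which slows the growth of microtubules, had the widest range of the transport kinesins above a mean of 100, from 173 in DT 5 to 336 in PBS 4.

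Kif5a, the conventional kinesin of neurons, separated the PBS mice into those between 51.0 and 67.1 normalized counts and those far below. Its values were 55.4, 67.1, 22.1, 51.0 and 11.5 normalized counts in PBS and from 16.7 in DT 5 over a median of 36.6 to 50.4 in DT 3. PBS 5 was below every DT mouse and PBS 3 was below all of them except DT 5, while the other PBS mice were above every DT mouse. The spread between mice of a group was 46.4% of the mean against a counting error of 16.0%. The same mice stood apart in the kinesin Kifc2, at 59.3 in PBS 3 and 58.8 in PBS 5 against between 145 and 155 in the other PBS mice, and in Mapk8ip3, an adaptor that links kinesin-1 to its cargo, at 309.8 and 285 against between 633 and 716. Cenpt was low in them too, at 382 and 319 against between 491 and 518, while Cenpm was high, at 96.6 and 98.6 against between 48.3 and 67.9. These 5 genes were picked after their values were seen. PBS 3 and PBS 5 were the lowest of the 5 PBS mice in 5 of 13 transport kinesins with a mean of at least 10 and the highest in 0 of 13. Among the centromere proteins they were the lowest in 4 of 21 and the highest in 4 of 21. This pair was singled out after its values were seen. Its share over all genes was not computed, so these counts cannot be read as a trait of a class. Cd74, an antigen presentation gene of the Langerhans cell list, was 2251 and 1674 normalized counts in PBS 3 and PBS 5 and between 564 and 1169 in the other 9 mice. Of the neuronal markers, Tubb3 was lowest in these mice, at 750 and 697 normalized counts against between 792 and 1042 in the others, while Stmn2 was at 26.2 and 32.5 against between 8.83 and 28.9. The part of these markers in the results was not tested.

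**Figure D4:**
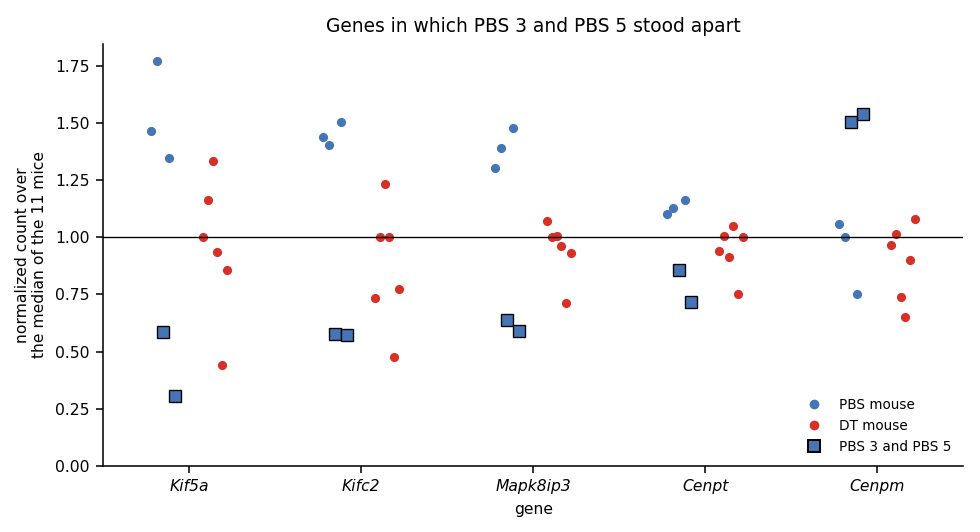
Normalized count divided by the median of the 11 mice (vertical axis) of Kif5a, Kifc2, Mapk8ip3, Cenpt and Cenpm in each PBS mouse (blue) and DT mouse (red), with PBS 3 and PBS 5 as squares. Both squares lie below the other PBS mice in the first 4 genes and above them in Cenpm.

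The fit was repeated with PBS 3 and PBS 5 left out, an alternative chosen after the data were seen. In that fit 1045 genes were lower after DT (5.45%) and 922 were higher (4.81%) at an adjusted p of 0.1. Of the 57 members, 2 passed, both lower, namely Cenpf with a log2 difference of -0.28 (adjusted limma p of 0.0600) and Cenpt with -0.27 (adjusted limma p of 0.0935). The share of members is below the share of all genes in that fit, and at an unadjusted p under 0.05 it was 14 of 57 (24.6%) against 21.6% of all genes. Kif5a had a log2 difference of -0.73 (adjusted limma p of 0.126) in place of -0.02, and Kif14 had -0.28 (adjusted limma p of 0.141). Of the partners and cell cycle markers, 4 passed lower, namely Mapk8ip3 with -0.56 (adjusted limma p of 0.00894), Mki67 with -0.39 (0.0165), the Cenpa chaperone Hjurp with -0.23 (0.0364) and Kifc2 with -0.79 (0.0459), and Klc3 passed higher with 0.17 (0.0673). Mapk8ip3, Kifc2, Kif5a and Cenpt were picked above for their low values in the mice left out, so that their larger differences follow from that choice. Hjurp too was lowest of PBS in PBS 3 (1441) and PBS 5 (1367), against between 1677 and 1805 in the others. Klc3 was highest of PBS in them (2383 and 2380), and PBS 3 was the lowest PBS mouse in Mki67 (3463) and Cenpf (981). The values of these genes in this fit thus also depend on which mice were left out. With 3 PBS mice left, these values rest on fewer libraries than the others given here.

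The other kinesins included genes of ciliary and signalling function. Kif26a, an atypical kinesin without motor activity that dampens growth factor signalling, was the highest of them at 407 normalized counts per kb, above all mitotic kinesins, followed by the depolymerase Kif2a at 101 per kb. Kif26a had 2859.5 ± 283 (SD, n = 5) normalized counts in PBS and 2783 ± 298 (SD, n = 6) in DT, a log2 difference of -0.04 (95% interval -0.21 to 0.12), and Kif2a one of -0.02 (95% interval -0.18 to 0.13). Kif26b, a relative of Kif26a, was the lowest per kb of those with a mean of at least 10, at 7.83, and ranged from 73.9 in PBS 2 to 152 in PBS 5.

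Kif24, which acts at centrioles and holds back the growth of cilia, had 93.9, 80.7, 60.3, 76.5 and 95.5 normalized counts in the PBS mice and ran from 44.2 in DT 5 over a median of 64.1 to 82.3 in DT 6. The groups overlapped, with PBS 3 below 4 of the 6 DT mice. Its log2 difference was -0.33 (SE 0.165, 95% interval -0.68 to 0.02), with an adjusted limma p of 0.458. Kif7, the kinesin of the Hedgehog pathway at the tip of the cilium, had a log2 difference of -0.11 (95% interval -0.30 to 0.09), and Kif9, a motor of motile cilia and sperm, one that rounded to 0 with an interval from -0.29 to 0.29. All 6 of the other kinesins with a mean of at least 10 had a difference below 0, against 49.3% of all genes above that mean, with a median of -0.07. The ciliary kinesins Kif6, Kif19a and Kif27 were between 0 and 11.8 normalized counts in every mouse, low like the markers of ciliated cells. Of these 4 markers, Dnah5 and Tekt1 had no values, Foxj1 was between 0 and 5.25 normalized counts, and Rsph1 was between 2.63 and 10.5, with a log2 difference of -0.75 (adjusted limma p of 0.316). The sum of the list was between 8.05 and 15.7 in PBS and between 4.03 and 9.66 in DT, and its part in the values of the ciliary kinesins was not tested.

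**Figure D5:**
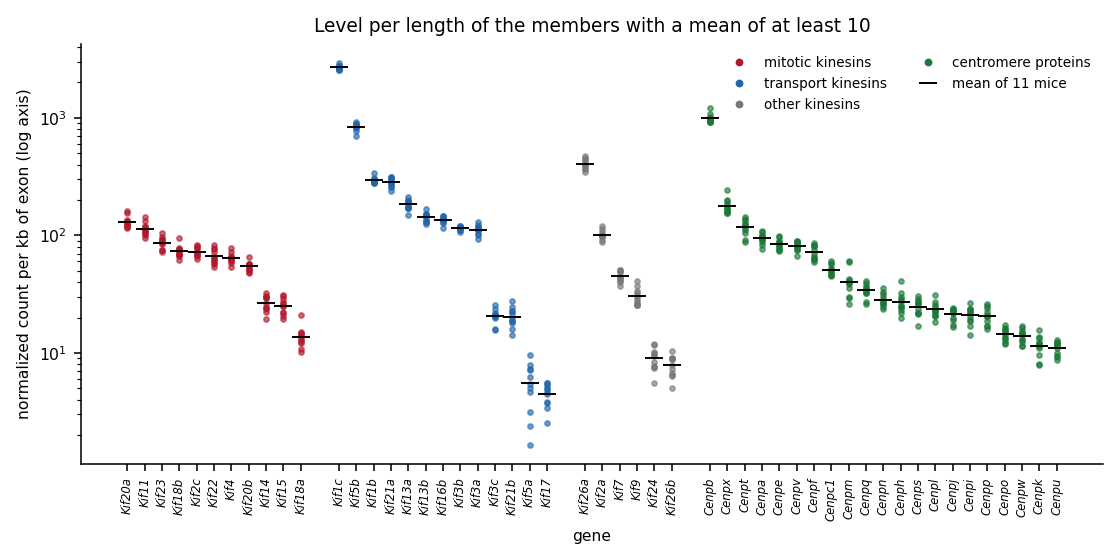
Normalized counts per kb of exon (vertical axis, log scale) in the 11 mice (points) with their mean (black dash) for the 51 members whose mean reached 10 normalized counts, ordered by level within each class. Kif1c is highest at a mean of 2687 per kb, Cenpb leads the centromere proteins at 992 per kb, and the mitotic kinesins lie between 13.7 and 131 per kb.

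Among the centromere proteins, Cenpb stood far above the rest. Cenpb binds a short motif in the satellite repeats of the centromere and had a level of 992 normalized counts per kb, followed by Cenpx at 179 and Cenpt at 118 per kb, both of the inner kinetochore. The histone variant Cenpa, which replaces histone H3 at centromeres, was at 94.5 per kb, and the lowest was Cenpu at 10.9 per kb. In all 21 genes the mean reached 10 normalized counts, and 15 of 21 (71.4%) had a difference below 0 against 49.3% of all genes above that mean, with a median of -0.09 against 0.00219.

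Cenpf was the centromere protein with the smallest p. It is a large coiled-coil protein that gathers in late G2, binds the outer kinetochore and is then degraded. In the PBS mice its values were 1258, 1154, 981, 1322 and 1267 normalized counts, and in the DT mice they ran from 916 in DT 4 over a median of 997 to 1248 in DT 6. The groups overlapped through PBS 3, the lowest PBS mouse, and DT 6, the highest DT mouse. The log2 difference was -0.22 (SE 0.0851, 95% interval -0.40 to -0.04), with an adjusted limma p of 0.333. Cenpe, the other protein of the outer kinetochore and itself a plus-end motor, had 759 ± 59.7 (SD, n = 5) in PBS and 707 ± 78.2 (SD, n = 6) in DT, a log2 difference of -0.11 (95% interval -0.27 to 0.06).

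The 17 proteins of the inner kinetochore, which remain on the centromere through the cell cycle, had differences between -0.36 in Cenpm and 0.21 in Cenpq, with 13 of 17 below 0. Cenpm had 67.9, 64.1, 96.6, 48.3 and 98.6 normalized counts in the PBS mice and between 41.9 and 69.1 in the DT mice, so that PBS 3 and PBS 5 alone lay above the DT range. Cenpi, which sits with Cenpm and Cenpk in a subcomplex, had 129.7 ± 13.2 (SD, n = 5) in PBS and 109.7 ± 20.5 (SD, n = 6) in DT, a log2 difference of -0.26 (95% interval -0.53 to 0.02). Cenpq was the inner protein with the most positive difference, 81.9 ± 12.2 (SD, n = 5) against 94.7 ± 9.23 (SD, n = 6), a log2 difference of 0.21 (95% interval -0.04 to 0.47). Cenpo, which forms a subcomplex with Cenpq, had a log2 difference of -0.19 (95% interval -0.42 to 0.04), the other direction, and neither passed the test.

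For the remaining inner proteins the values were close. Cenpa had 639, 624, 485, 573 and 555 normalized counts in the PBS mice and between 448 and 589 in the DT mice, a log2 difference of -0.10 (95% interval -0.28 to 0.07). Cenpb had a log2 difference of -0.05 (95% interval -0.20 to 0.09), Cenpx one of -0.10 (95% interval -0.34 to 0.13) and Cenpu one of -0.06 (95% interval -0.38 to 0.26). Cenpl and Cenpi had the widest ranges among the centromere proteins above a mean of 100, from 105 in PBS 4 to 176 in DT 6 for Cenpl and from 80.3 in DT 2 to 150.0 in PBS 5 for Cenpi. The genes Cenpj, which builds centrioles, and Cenpv, which acts on the spindle midzone, carry the name without a place in the inner or outer kinetochore, and had log2 differences of 0.11 (95% interval -0.14 to 0.36) and 0.07 (95% interval -0.13 to 0.27).

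The partners of these proteins gave values of the same size. Of 36 kinetochore partners, 0 passed the adjusted threshold in limma, with 3 lower (8.33%, against 6.19% of all genes) and 1 higher (2.78%, against 5.31%) at an unadjusted p under 0.05 and a median of -0.07. Kntc1, a subunit of the complex that brings dynein to the kinetochore, had 219 ± 49.3 (SD, n = 5) in PBS and 168 ± 25.6 (SD, n = 6) in DT, a log2 difference of -0.37 (95% interval -0.67 to -0.07, adjusted limma p of 0.321). Sgo2a, which guards cohesion at the centromere, was higher in the DT mean, 194 ± 23.1 (SD, n = 5) against 224 ± 15.9 (SD, n = 6), a log2 difference of 0.21 (95% interval 0.02 to 0.40, adjusted limma p of 0.368). Of 18 kinesin partners, 0 passed, with 0 lower and 2 higher (11.1%, against 5.31% of all genes) at an unadjusted p under 0.05 and a median of -0.01. These were Klc3, a light chain of conventional kinesin, at 2280.2 ± 105 (SD, n = 5) and 2497 ± 131 (SD, n = 6), a log2 difference of 0.13 (adjusted limma p of 0.321), and Kifbp, which binds and inhibits kinesins, with a log2 difference of 0.13 (adjusted limma p of 0.432). Among 8 markers of the cell cycle 0 passed and all 8 had a difference below 0, against 49.3% of all genes whose mean reached 10. The proliferation marker Mki67 was at -0.31 (95% interval -0.49 to -0.13, adjusted limma p of 0.180). This direction depended on PBS 3 and PBS 5. With them left out, Pcna (0.09), Ccnb2 (0.09) and Cdk1 (0.04) were above 0. Mki67, Top2a, Ccnb1, Ccna2 and Mcm2 remained below 0, with Mcm2 at -0.01.

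The spread between mice of a group contains the counting error of the reads, and both are given here in percent of the mean for the 51 members whose mean reached 10 normalized counts. The median spread was 11.8% in the mitotic kinesins, 9.55% in the transport kinesins and 13.6% in the centromere proteins. The median counting error of the recovered reads was 5.52%, 2.84% and 9.72% in the same order. Counting error was at least as large as the spread in 3 of the 51, namely Kif3b (3.91% against 3.76%), Kif17 and Cenpu, so no variation between mice beyond counting could be seen in them. The spread was smallest in Kif3b and largest in Kif5a (46.4%). Differences are on the scale of log2(normalized count + 1), which understates the change of low genes.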

How the data were processed

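Gene expression was measured by RNA sequencing of polyA-selected libraries from the gingival epithelium of 11 mice. The values that the authors deposited are normalized counts, one per gene and mouse. Reads were trimmed with cutadapt 2.10, aligned with TopHat2 2.1.1, counted per gene with HTSeq 2.01 and divided by DESeq2 1.36.0 size factors, per the submitters' processing notes. These notes name GRCm39 and the study's methods name GRCm38. The table holds no coordinates, and 3333 of its 55414 gene identifiers are not in GENCODE M21, so the build of the counts is unsettled. Exon lengths came from GENCODE M21 and promoter windows from RefSeq, both on GRCm38. The paper's methods follow a QuantSeq guide, a protocol that reads transcript ends, while its reporting summary names a stranded mRNA kit. The library type is thus unsettled, and orders and shares per kb hold only if reads covered whole transcripts. Whole reads were recovered from the steps of the values (tolerance 0.1 read) and used for depth and counting error only.

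The groups were compared on log2(normalized count + 1) by the linear models of limma 3.58.1 (R 4.3.3) with an intensity trend and no covariate. The p-values of 19170 genes were adjusted by Benjamini-Hochberg, the threshold was 0.1, and 95% intervals came from the moderated error. Simulated data were used to test the procedure. The members and lists were chosen with earlier results of these data known. Named with values were, in each class, the 4 members with the smallest p and the 2 highest and 1 lowest per kb among those with a mean of at least 10, the 2 with the largest ratio of highest to lowest mouse among those with a mean of at least 100, Kif11, Kif20a, Kif23, Kif5b, Cenpa, Cenpe and Cenpf, the genes that carry the name without its role, and the partners with the smallest p. Other genes were named after their values were seen. Nothing says that the mice came from separate litters, so p-values measure the spread between these mice. Counting errors cover the sampling of reads only. Alternatives were other pseudocounts and filters, TMM scaling, quantile normalization, array weights, a block on replicate numbers, and mice left out.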

Additional observations from a re-analysis of the deposited data

Results flagged for a closer look

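In 5 of 74 groups of mice (6.76%) of the named genes, a single mouse lay far from the others of its group by Dixon's criterion. Chance gives about 1 in 20 for independent groups. That rate is no measure here, because genes were named partly for a small p or a wide range and share the same mice. In 3 of these the mouse was DT 6 and the gene a mitotic kinesin: Kif11 reached 1072 normalized counts in DT 6, while the remaining DT mice had between 755 and 871. Kif18a was 205 in DT 6 and between 121 and 148 in the others. Kif20a was 699 in DT 6 and between 501 and 572 in the others. Cenpj, the centriole protein, stood at 84.8 in DT 1, while the remaining DT mice had between 106 and 117. Kif2a, the microtubule depolymerase, was 720.3 in PBS 4 and between 628 and 649 in the other PBS mice. The cause of these values was not tested.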

How the results depend on the processing

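With all 11 mice, 0 kinesins or centromere proteins passed the adjusted threshold, and this held under pseudocounts of 0.5 and 5, a filter at a mean of 10, TMM scaling, quantile normalization, array weights, the replicate block and each fit without 1 mouse. With PBS 3 and PBS 5 left out, chosen after the data were seen, 2 members passed, 14 had an unadjusted p under 0.05 (24.6%, against 21.6% of all genes) in place of 4 (7.02%, against 11.5%), 1967 genes passed in all in place of 107, and the median of the centromere proteins was 0.00741 in place of -0.09. In that fit Mapk8ip3, Mki67, Hjurp and Kifc2 also passed lower and Klc3 higher at 0.17, and Cenpb (0.02), Cenpx (0.05) and Kif5b (-0.05) moved by more than their error, with the sign turned. Array weights gave 189 genes. Leaving out single mice gave between 27 and 259 genes past the threshold, and between 1 (without PBS 1, against 9.82% of all genes) and 8 (without DT 6, against 10.2%) members with an unadjusted p under 0.05. Replicate numbers are shared between the groups, but the deviations of mice with the same number correlated between -0.233 and 0.324, so the numbers do not pair the mice. The library name of PBS 5 carries another number than its column. A replicate block on them, in which DT 6 has no partner and adds nothing to the difference, gave 35 genes past the threshold, 9 members with an unadjusted p under 0.05 (15.8%, against 9% of all genes) and 0 past the threshold. In all, 41 of 702 values of the 37 named genes under the alternatives had another sign than with all mice, in 12 genes. The tests of recovered reads with edgeR and DESeq2, planned as alternatives, were not run. The recovered reads served for depth and counting error. Depth limits Kif17, where counting error was as large as the spread, and the 6 members under a mean of 10. The cause of these shifts was not tested.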
